A study of Gallus gallus with 6 samples.

Results

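HBE, HBZ and HBM encode globin chains of the embryonic chicken's red blood cells. They were taken by these names from the deposited expression table and are 3 of its 17684 gene entries. The choice was by name, but it was made with earlier results of these data known. RNA came from cochlear ducts of embryos at day 6.5. Each duct was cut into a proximal, a middle and a distal piece, and all pieces of a region were pooled before RNA was extracted. All 3 groups share tissue and age, and no treatment or genotype is named. The piece from the distal end also carried the future lagena, and every piece held future hearing epithelium and future tegmentum vasculosum. Each region has 2 libraries, one in a first and one in a second set, as the table's column names give them. The labels speak of separate biological replicates. Not given in the sources used here is the number of embryos behind a pool.

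Hemoglobin carries oxygen as a tetramer of paired alpha-like and beta-like chains with heme. In birds the first red cells, the primitive cells that arise in the yolk sac, are nucleated, carry globin messenger RNA while they circulate, and use chains that later red cells replace. HBE is epsilon, a beta-like chain of primitive red cells. HBZ is the avian pi chain, the alpha-like chain of the same cells and the counterpart of zeta in mammals. HBM is the name the table uses for alpha-D, an alpha-like chain that later, definitive red cells also make, so the word embryonic holds less strictly for it than for epsilon and pi. Neither epithelium nor neurons of the ear are known as a main source of these transcripts, and globin RNA in a tissue piece is commonly read as blood left in its vessels.

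All 9 globin entries of the table matched the RefSeq gene table of assembly GRCg7b by symbol or synonym. There, HBM is listed as HBAD and lies between HBZ and the alpha-A gene (HBAA in the deposited table). HBE lies at the other cluster, in a row with beta-A, beta-H (HBE1 in the deposited table) and rho (HBG1 in the deposited table). Beta-A is not analysed here. Genes within a cluster are similar in sequence, and reads shared between them could be assigned to either, so the split between HBE, HBG1 and HBE1, and between HBZ, HBM and HBAA, is uncertain. The other 3 globin entries are cytoglobin (CYGB), neuroglobin (NGB) and myoglobin (MB), which are not red cell proteins.

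First-set libraries held 9262860 to 23537713 alignments and second-set libraries 56103107 to 73918748. The 3 globins were covered by 1223 to 37226 reads per kilobase, so the counting error of a value, for 1 kilobase of transcript, was at most 2.86%. That covers counting only, and the counting error is larger for a transcript shorter than 1 kilobase. Values are RPKM, reads scaled by gene length and by aligned reads, and can be compared between genes. In bulk tissue, fewer red cells and less globin RNA per cell cannot be told apart. Markers of the labelled tissue were present in all libraries. The summed level of 15 genes of the cochlear epithelium was 1522 to 2690 RPKM, and none of them was at 0 in any library.

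HBE, the epsilon chain, was most abundant in the proximal piece, intermediate in the middle and least abundant in the distal piece. In the proximal libraries it measured 434 RPKM in the first set and 291 in the second. In the middle it measured 188 and 151, and in the distal piece 134 and 115. The lowest proximal library lay above the highest middle library, and the lowest middle library above the highest distal one, so no 2 regions overlapped. In this direction 4.82% of all genes tested had no overlap between middle and proximal libraries. The percentages were 8.92% between distal and middle and 10.3% between distal and proximal libraries. The proximal level was 3.24 times the distal level in the first set and 2.54 times in the second.

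HBZ, the pi chain, had the same order within each set at nearly the same levels as HBE. It measured 405 RPKM (first set) and 278 (second set) in the proximal piece, 194 and 119 in the middle, and 132 and 108 in the distal piece. Proximal libraries stood clear of all others, and the percentages of all genes given for HBE apply here too. In RPKM the middle and distal libraries overlapped, since the second-set middle value lay below the first-set distal value. As shares of a library's summed RPKM they did not overlap. Proximal over distal was 3.07 in the first set and 2.58 in the second.

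HBM, the alpha-D chain, was the most abundant of the 3 in every library. It reached 1263 RPKM in the proximal piece of the first set, but only 504 in that of the second. The middle libraries measured 359 and 265 RPKM, and the distal ones 263 and 229. In RPKM the regions did not overlap, although the gap between the lower middle library and the higher distal library was small. The percentages of all genes without overlap are those given for HBE. As shares of a library's summed RPKM the middle and distal libraries overlapped. The first-set proximal library stood furthest from its partner, at 2.51 times the second-set value, against 1.35 times for the middle and 1.15 times for the distal libraries. HBM therefore had the widest difference in proximal over distal between the sets, 4.80 in the first and 2.20 in the second.

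**Figure D1:**
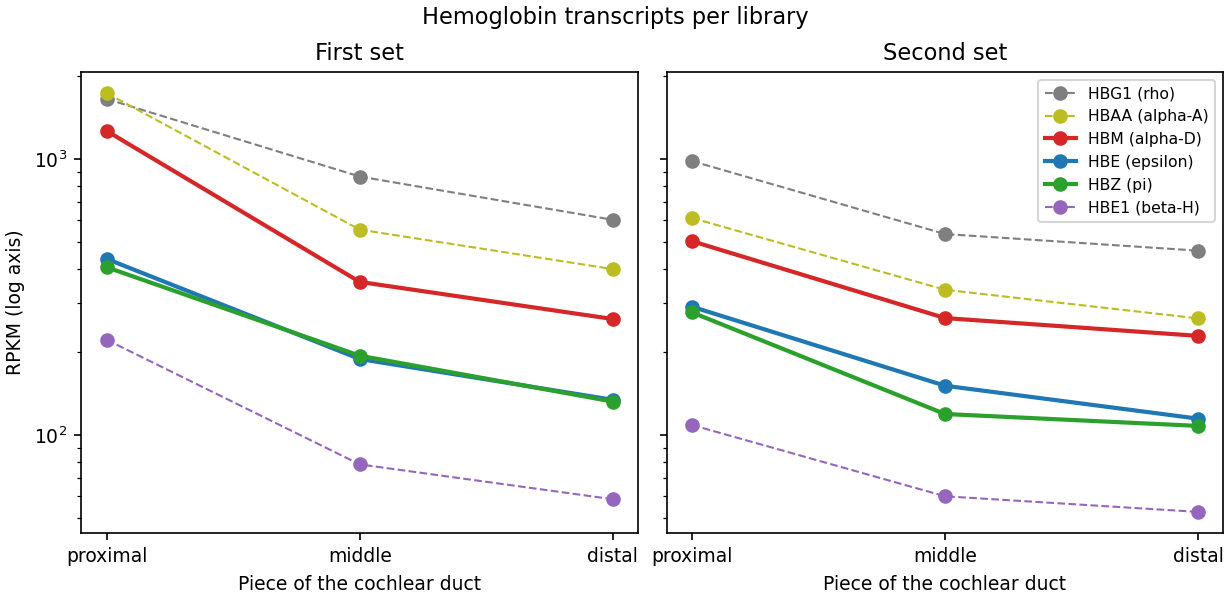
RPKM of the 6 hemoglobin genes (log axis) in the proximal, middle and distal piece, first set on the left and second set on the right, with 1 point per library. Solid lines are HBE, HBZ and HBM and dashed lines the other hemoglobins. Each line is highest in the proximal piece and lowest in the distal piece, and the first-set proximal value of HBM, 1263 RPKM, stands out from its second-set value of 504.

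As a share of all RPKM in a library, the 3 globins together made up 0.256% and 0.222% of the proximal, 0.0971% and 0.109% of the middle, and 0.0699% and 0.0938% of the distal libraries, first set before second. HBM alone accounted for 0.129% ± 0.0348 (SD, n = 2) of the proximal, 0.0505% ± 0.00503 of the middle and 0.0411% ± 0.00905 of the distal total. In the ranking of all genes by RPKM, HBM stood between place 102 and place 329, HBE between 192 and 642, and HBZ between 201 and 651. Each stood highest in a proximal library, HBM in that of the first set and HBE and HBZ in that of the second, and lowest in the first-set distal library.

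The comparison between the ends of the duct asked whether blood transcripts differ along its length. Mean levels were 363 ± 101 RPKM (SD, n = 2) in the proximal and 124 ± 13.8 in the distal piece for HBE, 342 ± 90.0 and 120 ± 17.2 for HBZ, and 883 ± 537 and 246 ± 24.4 for HBM. On the log2(RPKM + 1) scale the distal level was lower by a change of -1.51 ± 0.43 (SE) for HBE, -1.48 ± 0.46 for HBZ and -1.70 ± 0.60 for HBM. Over all 12559 genes tested the median change was 0.10. Ranked from the most negative change, HBM was number 96, HBE number 148 and HBZ number 162 among these genes.

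None of the 3 passed the threshold of an adjusted p below 0.05. In limma with region as the only term, two-sided and with Benjamini-Hochberg adjustment over all genes, adjusted p was 0.800 for HBE, 0.842 for HBZ and 1.0 for HBM, with unadjusted p of 0.00954, 0.0137 and 0.0247. That model called 0.0% of genes, and 4.04% had an unadjusted p below 0.05. With the set as a replicate block the SE was 0.20, 0.21 and 0.32, and limma's adjusted p was 0.0543, 0.0590 and 0.0882, just above the threshold, while 0.526% of all genes passed. This call depended on single libraries: with the block, HBE, HBZ and HBM passed when either proximal or either middle library was left out, and HBM also without the second-set distal one, in fits with 1 residual degree of freedom that called 374 to 6962 genes. In an alternative added after seeing the data, with the block and quantile normalization on all 6 libraries, 257 of the 12559 genes tested passed. HBE and HBZ were among them (limma adjusted p = 0.0348 and 0.0475) and HBM was not (0.0654). All 3 were at least 2-fold lower distally in both sets, as were 3.53% of all genes tested. All 3 had libraries that did not overlap, as had 10.3% of all genes in this direction. The HBM difference was -1.04 when the first-set proximal library was left out and -2.36 when its second-set partner was.

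Between the middle and the proximal piece the globins differed almost as much. The middle piece measured 170 ± 26.6 RPKM (SD, n = 2) for HBE, 156 ± 52.8 for HBZ and 312 ± 66.0 for HBM, and the change from proximal was -1.07 ± 0.43 (SE), -1.14 ± 0.46 and -1.37 ± 0.60 on the log2 scale. HBM was number 41, HBZ number 75 and HBE number 92 from the most negative change of all genes, where the median change was 0.08. In both sets HBZ was at least 2-fold lower in the middle than in the proximal piece, by 2.09 and 2.33 times, as were 0.884% of all genes. HBE, with 2.31 and 1.93, and HBM, with 3.52 and 1.90, passed this fold in the first set only. Again no member passed in limma, with adjusted p of 1.0 for each without the block and 0.421 (HBE), 0.399 (HBZ) and 0.558 (HBM) with it, and 0.0% of all genes passed in either model (0.884% at an unadjusted p below 0.05 without the block). With the block, HBE passed when either proximal library was left out, and HBZ and HBM without the second-set one, where 5558 genes passed. All 3 had libraries that did not overlap between these regions, against 4.82% of genes in this direction. The HBM change was -0.71 when the first-set proximal library was left out and -2.03 when its second-set partner was.

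Between the distal and the middle piece the differences were smaller and did not pass the test. The change from middle to distal was -0.44 ± 0.43 (SE) for HBE, -0.35 ± 0.46 for HBZ and -0.33 ± 0.60 for HBM. The 95% intervals ran from -1.46 to 0.57, from -1.42 to 0.73 and from -1.74 to 1.08, and thus held both lower and higher distal levels. Limma's adjusted p was 1.0 for each (0.0% of genes called, 1.67% at an unadjusted p below 0.05), and with the block 0.760, 0.919 and 1.0. In RPKM the libraries of HBE and HBM did not overlap between these regions, as for 8.92% of all genes in this direction. Within the sets the middle level was 1.41 and 1.32 times the distal level for HBE, 1.47 and 1.10 times for HBZ, and 1.36 and 1.16 times for HBM, so each member was lower distally in both sets, as were 30.6% of all genes. For HBZ the change was 0.003 without the first-set middle library. With the block, HBE passed when either proximal library was left out (1257 and 1113 genes called), and HBM had 0.0092 without the first-set distal one.

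The other hemoglobins had the same order. HBG1, the beta-like rho chain of primitive red cells, measured 1650 and 983 RPKM in the proximal, 864 and 535 in the middle, and 602 and 465 in the distal piece. HBAA, the alpha-A chain that red cells use from the embryo to the adult bird, measured 1732 and 611, 555 and 336, and 399 and 264 RPKM. HBE1, the beta-H chain, was the least abundant, with 221 and 109, 78.2 and 59.9, and 58.5 and 52.6 RPKM. All 6 hemoglobins thus lay in the order proximal, middle, distal in both sets, an order shared by 5.61% of the 12559 genes tested. Their change from proximal to distal was between -1.70 and -1.26 with a median of -1.50, and from proximal to middle between -1.37 and -0.90 with a median of -1.15. None of the 6 passed over all genes in limma with or without the block on the 6 libraries as deposited. After quantile normalization with the block, HBG1 and HBE1 passed between the ends (limma adjusted p = 0.0492 and 0.0411), as did HBE and HBZ. That alternative was added after seeing the data, and with it 257 of the 12559 genes tested passed.

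CYGB and NGB, globins outside red cells, did not share this order. CYGB, which binds oxygen in fibroblast-like and other cells, measured 123 and 105 RPKM in the proximal, 95.8 and 147 in the middle, and 63.3 and 83.6 in the distal piece, and its highest second-set library was the middle one. NGB, a globin of neurons, went the opposite way, from 1.66 and 1.26 RPKM proximally to 2.39 and 1.87 in the middle and 3.49 and 2.04 distally. Neither passed in limma between the ends (change of -0.64 ± 0.40 for CYGB and 0.59 ± 0.43 for NGB, adjusted p = 1.0 for both without the block and 0.341 and 0.323 with it). MB, the muscle globin, lay in the order proximal, middle, distal in both sets, with 0.749, 0.659 and 0 RPKM in the first and 0.563, 0.397 and 0.233 in the second, but was too low to be tested.

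**Figure D2:**
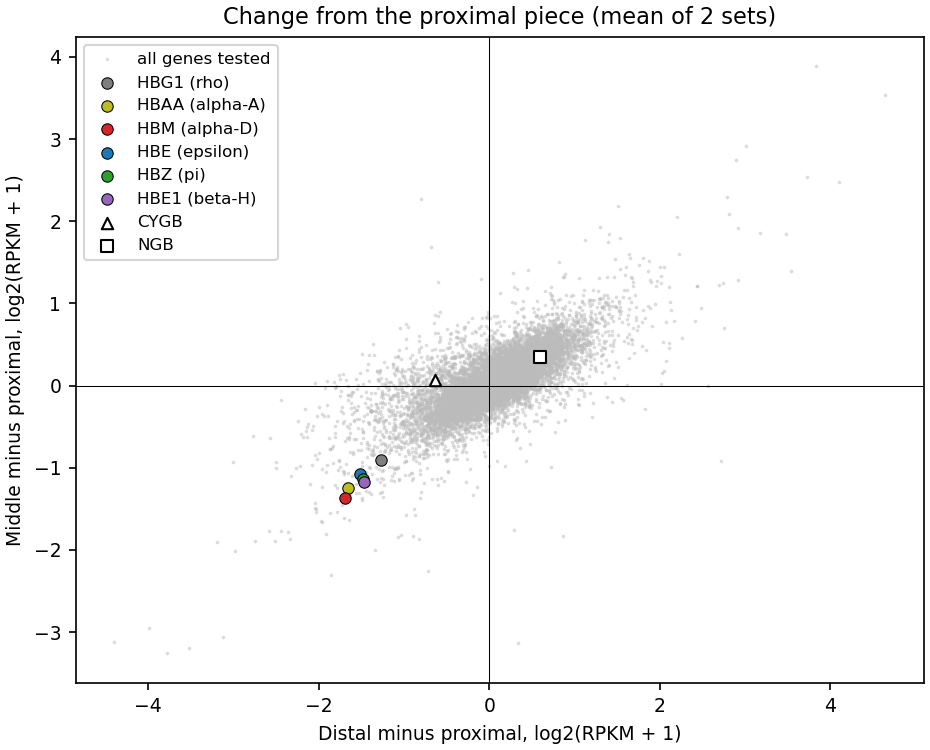
Change in log2(RPKM + 1) from the proximal to the distal piece (x axis) and from the proximal to the middle piece (y axis) for all 12559 genes tested (grey) and the globins (coloured points for hemoglobins, open symbols for CYGB and NGB), each the mean of 2 sets. Both axes use the same proximal libraries. The 6 hemoglobins lie close together at the lower left, with HBM at -1.70 and -1.37, while NGB and CYGB lie apart from them.

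The proportions between the chains were much steadier than their levels, with 1 library as the exception. The ratio of HBE to HBZ was 1.07 and 1.05 in the proximal, 0.973 and 1.27 in the middle, and 1.02 and 1.06 in the distal piece, and showed no order along the duct. The ratio of HBM to HBZ was 1.81 to 2.23 in 5 libraries and 3.12 in the first-set proximal library. Likewise the summed alpha-like chains (HBZ, HBM and HBAA) were 0.950 to 1.01 times the summed beta-like chains (HBE, HBG1 and HBE1) in 5 libraries and 1.47 times in the first-set proximal one. In that library HBM and HBAA were high relative to HBE, HBZ and HBG1. The beta-like HBE1 also had its highest ratio to HBZ there, 0.546 against 0.391 to 0.503 in the other 5. The shift was thus not limited to alpha-like chains. The first-set proximal library is also the one in which HBAA, rather than HBG1, was the most abundant hemoglobin. Beta-A is missing from the beta-like sum, so the ratio is a relative one.

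**Figure D3:**
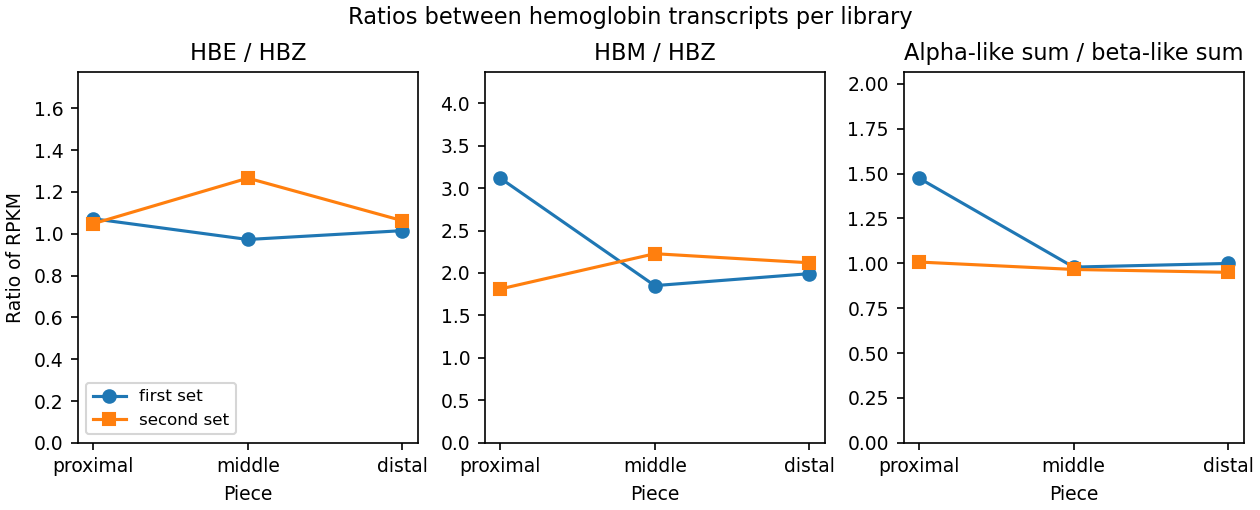
Ratio of RPKM of HBE to HBZ, of HBM to HBZ, and of summed alpha-like to summed beta-like hemoglobins in each piece, with 1 point per library (circles first set, squares second set), on axes from 0. The first-set proximal library stands apart in the middle and right panels, at 3.12 and 1.47, while HBE to HBZ stays between 0.973 and 1.27.

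Globin levels also differed between the sets. The first-set value was higher for all 3 members in every region, by 1.49 (HBE), 1.46 (HBZ) and 2.51 (HBM) times among proximal, 1.25, 1.63 and 1.35 times among middle, and 1.17, 1.23 and 1.15 times among distal libraries. Over all genes tested the median ratio of the sets went the other way, at 0.726 (proximal), 0.847 (middle) and 0.860 (distal), computed on RPKM + 1. The summed RPKM of a library also differed by set, at 757443 to 822531 for first-set and 480760 to 490156 for second-set libraries. As shares of that sum, 7 of the 9 pairs of first-set and second-set values turned round, with the first set lower. For HBE the shares were 0.0528% and 0.0604% in the proximal, 0.0247% and 0.0308% in the middle, and 0.0177% and 0.0238% in the distal piece, first set before second. For HBZ they were 0.0493% and 0.0576%, 0.0254% and 0.0243%, and 0.0174% and 0.0224%. For HBM they were 0.154% and 0.104%, 0.0470% and 0.0541%, and 0.0347% and 0.0475%. The order of the sets thus depended on the scale for all but HBZ in the middle and HBM in the proximal piece. So did the overlap of middle and distal libraries for HBZ and HBM.

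Red cell genes other than hemoglobins differed widely in level, with ALAD at 75.3 RPKM in the first-set proximal library and others below 1 RPKM. Most did not share the globin order. Of 42 erythroid genes with an entry, 34 could be tested and 0 passed in limma with or without the block between any regions. At an unadjusted p below 0.05 between the ends there were 2 of 34 without the block, CA2 and SLC2A1, and 7 of 34 with it, against 4.04% and 14.7% of all genes. The 13 that were highest in the proximal piece in both sets include the erythroid transcription factor KLF1, the red cell membrane gene TSPO2 and the heme synthesis gene ALAS1. Of those tested, 10 of 34 were highest there, and 9.76% of all genes. The full order proximal, middle, distal in both sets held for 5 of 34, and for 5.61% of all genes. KLF1, which switches on globin genes, measured 1.81 and 1.08 RPKM in the proximal, 1.05 and 0.703 in the middle, and 1.10 and 0.602 in the distal piece. TSPO2 measured 6.27 and 4.14, 3.63 and 2.60, and 3.49 and 3.04. Within each set both stood highest in the proximal library, but their changes between the ends, -0.40 ± 0.40 and -0.52 ± 0.44, were about 1 SE in size.

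CA2, a carbonic anhydrase of red cells that other ear cells also express, came closest to the globins in size. It measured 32.8 and 20.0 RPKM in the proximal, 12.2 and 11.5 in the middle, and 7.73 and 6.63 in the distal piece, a change of -1.71 ± 0.41 between the ends (limma adjusted p = 0.731, with the block 0.0603). SLC2A1, a glucose transporter of mammalian red cells and of many epithelia, lay the other way, with 21.5 and 28.0 RPKM proximally and 46.0 and 53.3 distally (0.99 ± 0.36, limma adjusted p = 1.0, with the block 0.0960). Further membrane and regulatory genes of red cells were low in level. ANK1, EPB42, RHAG, XK, KEL, HEMGN, AQP1 and GFI1B failed the filter, and their highest value in any library was 1.18 RPKM. HEMGN, which is restricted to blood-forming cells and was picked after its values were seen, measured 0.420 and 0.264 RPKM in the proximal piece. It had 0.319 and 0.0909 in the middle, and 0.161 and 0.107 in the distal piece. In the first set RHAG, KEL and AQP1 were higher distally (0.178, 0.143 and 1.11 RPKM) than proximally (0.116, 0.0926 and 0.340). In the second set RHAG, KEL and AQP1 were lower distally.

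Heme synthesis genes, which all cells use at a basal level, were spread around no change between the ends (12 tested, median -0.06, 5 lower and 4 higher distally in both sets). ALAD, the second enzyme of the pathway, was the one with the smallest p, and measured 75.3 and 31.1 RPKM proximally against 25.8 and 26.6 distally. Its first-set proximal value stood alone, since the other 5 libraries lay between 25.8 and 35.9 RPKM. In the same list ABCB10 and TFRC had positive changes, 0.46 and 0.30, and ALAS1 had -0.43. Red cell membrane genes and enzymes had a median of -0.08 (11 tested, 5 lower and 3 higher) and erythroid factors and receptors one of -0.25 (11 tested, 6 lower and 3 higher), against 0.10 over all genes. Over all genes tested, 24.7% were lower and 33.3% higher distally in both sets. Heme and iron handling genes had a median of 0.13 (10 tested, 2 lower and 4 higher distally in both sets). HMOX1, which breaks heme down, had the most negative change of these (-0.85 ± 0.53 between the ends, limma adjusted p = 1.0). It measured 21.5 and 10.6 RPKM in the proximal, 11.1 and 5.92 in the middle, and 10.1 and 6.17 in the distal piece. HEPH, CP and NCOA4 of this list had positive changes, 0.62, 0.51 and 0.29.

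Most markers of other cells that travel in or line vessels lay lower distally too, and the list medians were smaller in size than that of the hemoglobins. No gene of the leukocyte, endothelial and thrombocyte lists passed in limma with or without the block, and at an unadjusted p below 0.05 between the ends there was 1 of 35 without the block, the matrix gene THBS1, and 11 of 35 with it (4.04% and 14.7% of all genes). Of 12 leukocyte genes tested, 8 were lower and 2 higher in the distal piece in both sets, with a median of -0.61. The complement gene C1QB of macrophages measured 4.13 and 1.54 RPKM proximally against 1.03 and 0.834 distally, and the myeloid factor SPI1 2.36 and 1.13 against 0.443 and 0.696. Of 16 endothelial genes, 10 were lower and 1 higher, with a median of -0.24, and of 7 thrombocyte genes 4 were lower and 1 higher, with a median of -0.44. Among all genes, 24.7% were lower and 33.3% higher distally in both sets. The tight junction gene CLDN5 of vessel walls measured 21.4 and 16.7 RPKM proximally and 5.26 and 14.9 distally. EGFL7 of the same list was higher distally, with 34.3 and 15.3 RPKM proximally and 35.0 and 30.9 distally. CDH5 of this list was mixed, with 5.20 and 12.7 RPKM proximally and 7.24 and 7.46 distally. CD3E, known from T cells of other species, went against its list, with 20.5 and 27.9 RPKM proximally and 36.5 and 44.5 distally. Summed levels were 123 and 131 RPKM in the proximal, 85.1 and 123 in the middle, and 88.4 and 108 in the distal piece for the endothelial list, and 112 and 84.5, 90.5 and 77.1, and 109 and 103 for the leukocyte list. The part of these cells in the globin differences was not tested.

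Neuron markers varied along the duct in another way. Of 15 neuron genes, 14 were lower distally than proximally in both sets, as were 24.7% of all genes. The neuron median was -1.06, against -1.50 for the hemoglobins. With the block, 5 of the neuron genes passed in limma, and 0.526% of all genes. Between the middle and the proximal piece, however, the neuron median was -0.01, with 5 lower and 5 higher in both sets (14.6% and 20.8% of all genes), where the hemoglobin median was -1.15. The neuron growth gene GAP43 measured 280 and 249 RPKM in the proximal, 195 and 279 in the middle, and 44.0 and 51.6 in the distal piece, so its step lay between middle and distal. The steps of HBE, HBZ and HBM lay mainly between proximal and middle. Cochlear epithelium genes were mostly higher distally (median 0.53, 11 of 15 in both sets, against 33.3% of all genes). Whether these differences in tissue makeup bear on the globin values was not tested.

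**Figure D4:**
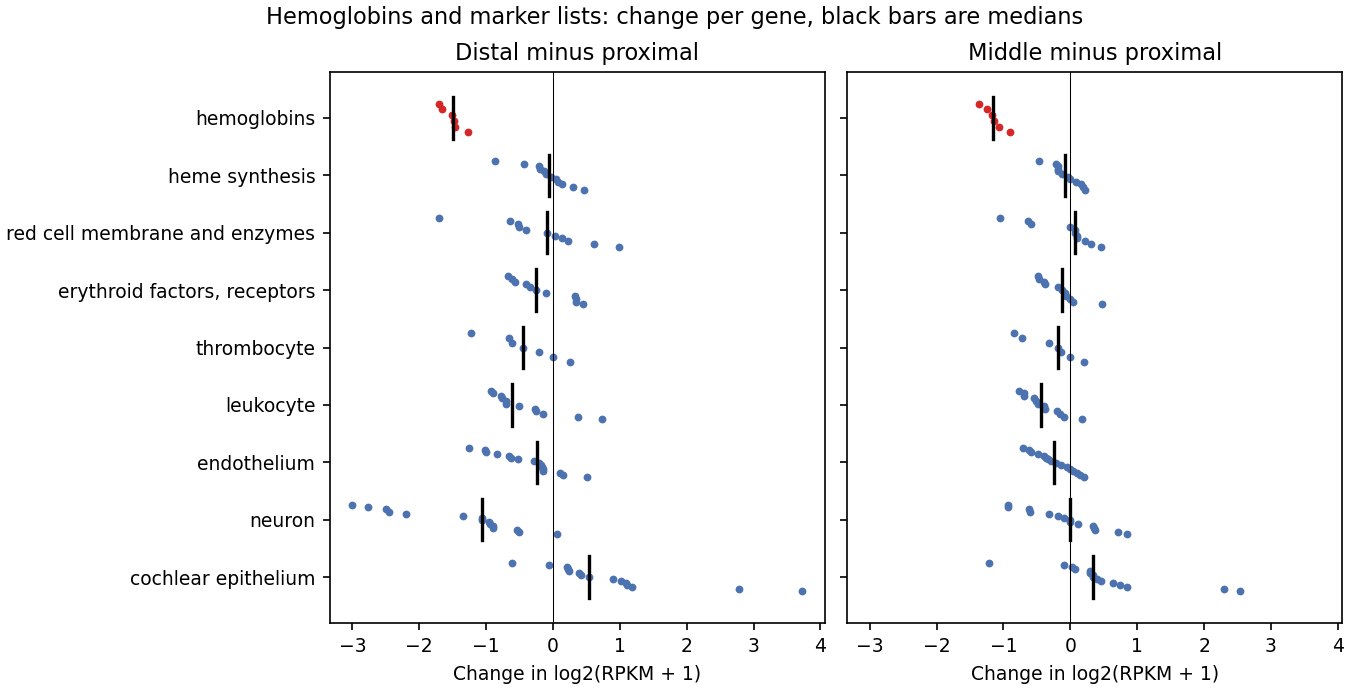
Change in log2(RPKM + 1) of each tested gene from the proximal to the distal piece (left) and to the middle piece (right), for the 6 hemoglobins (red) and 8 marker lists (blue), with black bars for medians. The hemoglobins lie between -1.70 and -1.26 on the left, while heme synthesis genes are spread around 0 and neuron genes have a median of -1.06 on the left and -0.01 on the right.

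Genes with the most similar pattern were sought over the 6 libraries by Pearson's r on log2(RPKM + 1). The libraries share sets and regions, so r is a measure of likeness only. For HBE the nearest named genes outside the globins were OTOL1, an otoconial matrix gene (0.992), CA2 (0.989), HPGD, which degrades prostaglandins (0.988), ESPNL (0.988) and GBX2, a homeobox gene (0.984). For HBZ they were GBX2 (0.999), HPGD (0.991), ACTA2, the smooth muscle actin gene (0.987), GAL5 (0.987) and CD81, a membrane protein gene of many cells (0.980). For HBM they included ESPNL (0.988), CD81 (0.985), C1QB (0.982) and GAL5 (0.979). The nearest of all genes to HBM was HBE1 (0.999), at the other globin cluster, and HBE and HBZ had r of 0.985 with each other. Not all hemoglobins were that near, since HBZ was number 30 of 12558 genes for HBM (0.961).

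After centring each set, so that only differences between regions within a set remained, the nearest genes were CPB1, CPZ, ACTA2, OPTC and OTOL1 for HBE (0.997 to 0.999), GBX2, CA12, FAM189A2, CHRNA1 and OTOL1 for HBZ (0.995 to 0.999), and for HBM they included SIAH3, WNT2B, ESPNL and FADS2 (0.997 to 0.998). None of these is on the red cell lists used here, which hold only 34 of the 12559 genes tested. Among 12558 genes, HBG1 was then number 10 for HBE and number 5 for HBZ, and HBE1 number 1 for HBM. HBZ was number 33 for HBE and number 212 for HBM. SIAH3, WNT2B, CPB1 and CA12 reached 1 RPKM in the proximal libraries only. They could pass the filter only by being high there, so their likeness to the globins carries little weight. SIAH3, for example, measured 3.67 and 1.58 RPKM proximally and at most 0.283 elsewhere. ACTA2, which also marks the walls of vessels, was the lowest of the 5 tested genes of the pericyte and smooth muscle list, whose median between the ends was -0.26 and in which the smooth muscle myosin gene MYH11 had 0.76. ACTA2 measured 19.9 and 10.6 RPKM in the proximal, 7.64 and 4.39 in the middle, and 5.07 and 2.89 in the distal piece. OTOL1 had the same order over a much wider range, with 43.2 and 23.3, 4.05 and 1.83, and 0.759 and 0.377 RPKM.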

How the data were processed

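RNA was selected with oligo-dT beads, primed at random and sequenced on an Illumina instrument, per the labels' protocols, which name alternative library kits without tying them to libraries. The authors deposited RPKM values per gene. TopHat 1.4.0 and Partek 6.6 are the tools named, per the submitters' processing notes. No positions are printed, since genome build, annotation and strand use were not given in the sources used here. An entry holding alignments was kept out of sums and tests. Column names give the region and set of each library but not its sample record.

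Genes reaching 1 RPKM in at least 2 of 6 libraries were tested on log2(RPKM + 1), which understates changes of low genes, with limma 3.58.1 in R 4.3.3 (intensity trend, two-sided, Benjamini-Hochberg over 12559 genes, threshold 0.05). The code was tested on simulated data. The model without the set has 3 residual degrees of freedom. The replicate block, the set as an additive term, leaves 2, and 1 when a library is left out. Differences between the sets, named in the columns, correlated across genes at 0.659 (proximal and middle), 0.655 (proximal and distal) and 0.885 (middle and distal). Libraries of a set thus shared part of their difference from the other set. Whether the pools of a set were matched cannot be told from this. With 2 libraries per region, p-values rest on the spread between these pools, which without the block includes the differences between the sets. Alternatives changed the pseudocount, filter, scaling, trend, set term and libraries. Named genes were the members, the other globins, per member the 5 genes of highest Pearson's r with and without centred sets, and up to 4 genes per marker list by smallest p between the ends, of which those bearing on blood are given. A gene that this rule names for HBM is not reported here. HEMGN, CDH5 and EGFL7 were added after their values were seen. The members and lists were chosen with earlier results of these data known.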

Additional observations from a re-analysis of the deposited data

How the results depend on the processing

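The 9 changes of HBE, HBZ and HBM between regions were recomputed under 23 alternatives each, 207 values in all. Of these, 184 kept direction and side of the threshold, 21 passed it and 2 turned. All 21 came from alternatives with the replicate block that were added after seeing the data, most of them with 1 library left out. With the replicate block and quantile normalization together, an alternative added after seeing the data, HBE (-1.39, limma adjusted p = 0.0348) and HBZ (-1.34, adjusted p = 0.0475) passed between distal and proximal, and HBM did not (adjusted p = 0.0654). HBZ between distal and middle was 0.0031 without the first-set middle library, and -0.69 to 0.0031 over all libraries left out in turn. The cause was not tested. Scaling by the median ratio shifted the median of all genes between distal and proximal by -0.11. Relative to that median, HBE, HBZ and HBM had -1.63, -1.60 and -1.82, against -1.61, -1.58 and -1.80 as deposited.

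Genes called between distal and proximal numbered 0 without and 66 with the replicate block, 257 with block and quantile normalization, and 0 to 1 when 1 library was left out. Between middle and proximal, block and quantile normalization gave 3. The replicate block on all 6 libraries changed no call of a member. Where 1 library of a region was left, it was assumed to vary like the other regions. With ribosomal protein and mitochondrial genes out of the sum, mean shares were 0.0734%, 0.0367% and 0.0282% for HBE in proximal, middle and distal, 0.0693%, 0.0332% and 0.0271% for HBZ, and 0.169%, 0.0671% and 0.0559% for HBM. Each region has 2 pools. Counting error for 1 kilobase of transcript reached 2.86% for HBE, HBZ and HBM, 20.4% for NGB and 30.4% for MB.

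The replicate block with 1 library left out, also added after seeing the data, kept 1 residual degree of freedom, and its calls moved with the library left out. Genes called between distal and proximal then numbered 800 without the first-set and 6962 without the second-set proximal library, 601 and 597 without the middle libraries, and 119 and 374 without the distal ones, the first set first. Between middle and proximal they numbered 49 and 5558, 22 and 83, and 84 and 85, and between distal and middle 1257 and 1113, 38 and 38, and 13 and 71. Between distal and proximal HBE and HBZ passed in 4 of 6 such fits and HBM in 5. HBE had -1.36 and -1.67 without the proximal libraries and -1.51 without either middle one. HBZ had -1.46, -1.51 and -1.48, and HBM -1.19, -2.20 and -1.70 in the same order. HBM also passed without the second-set distal library, with -2.04. Limma's adjusted p in the 6 fits ran from 0.00061 to 0.372 for HBE, 0.0012 to 0.453 for HBZ and 0.00051 to 0.561 for HBM. Between middle and proximal HBE passed without either proximal library (-0.92 and -1.22), and HBZ (-1.16) and HBM (-1.87) without the second-set one. Between distal and middle HBE passed without either proximal library (-0.44 in both), and HBM turned to 0.0092 without the first-set distal library. The cause was not tested.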
